A study of Mus musculus with 34 samples.

Results

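JunD binding was compared between PPARγ knockout and wild-type thioglycollate elicited macrophages (TGEMs), the macrophages that gather in the peritoneum of mice after an injection of thioglycollate broth. Of the 34 samples in the series, 30 of which have a peak list, the comparison uses 2: a JunD ChIP-seq list from PPARγ knockout TGEMs and a JunD list from C57BL/6 TGEMs, both treated with vehicle (Veh, PBS). The sample titles give C57Bl6 for both, with the knockout written as C57Bl6-PPARgKO. Any overlap between peaks of the lists, down to 1 bp, made them a single locus. The 19355 knockout peaks and 19653 wild-type peaks gave 28490 loci, of which 8846 held a knockout peak only (knockout-only), 10509 held both (shared) and 9135 held a wild-type peak only (wild-type-only).

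The comparison addresses whether loss of PPARγ changes where an AP-1 monomer binds. All cells came from male mice. C57Bl/6J and BALB/cJ animals were 8 weeks old, cells were taken 3 days after injection, and treatment lasted 1 h. The age of the knockout animals is not given in the sources used here. The labels write the genotypes as PPARgKO and C57Bl/6EiJ, and JunD was precipitated from each with antibody sc-74 after crosslinking with disuccinimidyl glutarate and formaldehyde. The promoter or Cre line behind the deletion is not given in the sources used here. PPARγ, PU.1 and CEBPα lists came from wild-type Veh cells, PPARγ with a set of 3 antibodies (sc-7196, C26H12, C15410133), so they show where these factors were found when PPARγ was present. ATF3 and Jun lists from the same genotypes, and JunD lists from C57BL/6 cells given Kdo2 lipid A (KLA, an agonist of Toll-like receptor 4) for 1 h and from BALB/cJ cells with Veh or KLA, served for comparison.

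JunD is a leucine zipper protein of the AP-1 family. It binds DNA as a dimer with another Jun, Fos or ATF protein, at the TRE or the slightly longer CRE, and in resting cells it is among the more constantly present AP-1 proteins. PPARγ is a nuclear receptor that binds DNA with RXR at a direct repeat known as DR1, responds to fatty acids and drives genes of lipid uptake and storage. PU.1 and CEBPα are lineage factors of myeloid cells, and in macrophages they open many of the enhancers that AP-1 proteins and PPARγ also occupy.

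Each condition had 1 list, in which the authors combined replicate experiments, so no test over samples could be made and no p-value is given. Shares carry 95% Wilson intervals. Differences of shares within deciles of count carry 95% intervals of the Mantel-Haenszel difference, with the Sato variance. These cover counting error over loci and not the spread between mice or libraries. The deposited counts were not scaled to library size. Peaks were therefore compared by percentile of count within their own list, and counts of the 2 lists are set side by side as a description. Median counts were 35 (13 to 236) in the knockout list and 50 (27 to 268) in the wild-type list.

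The knockout lists stood apart on unplaced contigs, sequences of the assembly that have no chromosome. The knockout JunD, ATF3 and Jun lists held 60, 41 and 45 peaks there and the PPARγ list held 65, against 0 to 4 in each of the other 8 lists. Of the 60 knockout JunD peaks, 52 lay on the contig JH584304, 38 overlapped a PPARγ peak and 0 overlapped a JunD peak of another list. The part of this in the results was not tested, but leaving out unplaced contigs, contigs assigned to a chromosome without a position, and chromosomes M and Y left 8769 knockout-only, 10506 shared and 9133 wild-type-only loci. At the genes of 8 macrophage markers JunD loci were found for all 8, and at 10 marker genes of other cells for 4. Peaks at Pparg do not show whether the gene was deleted, so they check nothing about the genotype.

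The central 200 bases of 7 loci show what the classes hold. They are given on the plus strand of mm10 (GRCm38), with TRE (TGACTCA or TGAGTCA), CRE (TGACGTCA, TGAGCTCA, TGACCTCA or TGAGGTCA) and DR1 matches in capitals. The first was chosen as the shared locus with the highest mean percentile, the next 2 as the wild-type-only loci with the highest counts and the following 2 as the knockout-only loci with the highest counts on assembled chromosomes. The last 2 hold a DR1 beneath a strong PPARγ peak: 1 is wild-type-only and 1 is a shared locus with a large fall in JunD rank.
Tax1bp1 (shared) chr6:52825642-52825841: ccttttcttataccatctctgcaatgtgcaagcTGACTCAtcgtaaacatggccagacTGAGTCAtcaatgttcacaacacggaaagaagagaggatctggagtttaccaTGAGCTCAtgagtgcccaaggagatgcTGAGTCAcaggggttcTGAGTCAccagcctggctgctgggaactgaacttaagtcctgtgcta
Prss56 (wild-type-only) chr1:87180947-87181146: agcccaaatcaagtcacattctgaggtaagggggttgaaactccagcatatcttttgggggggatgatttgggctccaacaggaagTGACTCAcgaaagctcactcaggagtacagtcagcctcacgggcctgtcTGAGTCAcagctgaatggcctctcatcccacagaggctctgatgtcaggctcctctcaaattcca
Eva1b (wild-type-only) chr4:126131822-126132021: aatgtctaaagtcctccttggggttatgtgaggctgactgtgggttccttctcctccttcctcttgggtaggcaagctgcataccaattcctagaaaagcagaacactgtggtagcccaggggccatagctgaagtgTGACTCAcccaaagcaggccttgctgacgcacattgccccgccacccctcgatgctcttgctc
Sertad2 (knockout-only) chr11:20477566-20477765: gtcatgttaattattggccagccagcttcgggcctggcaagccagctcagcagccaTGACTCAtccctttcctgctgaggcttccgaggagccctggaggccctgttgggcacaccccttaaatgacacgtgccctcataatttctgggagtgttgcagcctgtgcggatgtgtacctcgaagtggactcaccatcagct
Capzb (knockout-only) chr4:139233032-139233231: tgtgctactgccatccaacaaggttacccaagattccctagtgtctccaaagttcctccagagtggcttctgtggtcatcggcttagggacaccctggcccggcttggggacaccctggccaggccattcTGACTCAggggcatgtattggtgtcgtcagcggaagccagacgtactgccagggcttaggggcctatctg
Tle3 (wild-type-only, DR1) chr9:61337774-61337973: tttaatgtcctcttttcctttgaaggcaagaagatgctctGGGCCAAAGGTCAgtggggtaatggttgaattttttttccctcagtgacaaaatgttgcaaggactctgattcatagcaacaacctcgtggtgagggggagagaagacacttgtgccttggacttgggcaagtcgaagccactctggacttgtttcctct
Slc16a10 (shared, DR1) chr10:40093616-40093815: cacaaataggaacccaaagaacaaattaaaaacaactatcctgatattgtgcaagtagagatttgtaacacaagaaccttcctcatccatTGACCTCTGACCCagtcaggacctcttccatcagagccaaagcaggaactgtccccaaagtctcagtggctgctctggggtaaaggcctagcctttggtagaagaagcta
The Tax1bp1 window held 4 TREs and a CRE, the Prss56 window held 2 TREs, and those near Eva1b, Sertad2 and Capzb held 1 TRE each. The windows near Tle3 and Slc16a10 held a DR1 and neither a TRE nor a CRE.

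Wild-type-only loci made up 32.1% of all loci (95% interval 31.5 to 32.6), knockout-only loci 31% (30.5 to 31.6) and shared loci 36.9%. These are the background against which the gene groups below are read. The gene groups hold few loci, and their shares are given without intervals and were not tested. Shared loci held 53.5% of the wild-type peaks and 54.3% of the knockout peaks. Both unshared classes were weak: the median count of knockout-only loci was 23 (13 to 160), at percentile 24.5 of the knockout list, and that of wild-type-only loci was 43 (27 to 197), at percentile 36.3 of the wild-type list. Shared loci had median counts of 52 in the knockout and 60 in the wild type, at percentiles 71.4 and 63.8. The wild-type list began at a count of 27, above the median of the knockout-only loci. With only peaks at or above a count of 44 in either list the classes held 914 knockout-only, 6313 shared and 5990 wild-type-only loci. On these unscaled counts the cutoff kept 7227 knockout and 12305 wild-type peaks. A scaled IDR score of 1000 kept 12527 and 10209 peaks, and knockout-only loci then outnumbered wild-type-only loci. A wild-type-only locus rarely had a knockout JunD peak beside it, with 8.95% (8.39 to 9.56) within 500 bp and 15.9% (15.2 to 16.7) within 1 kb.

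**Figure D1:**
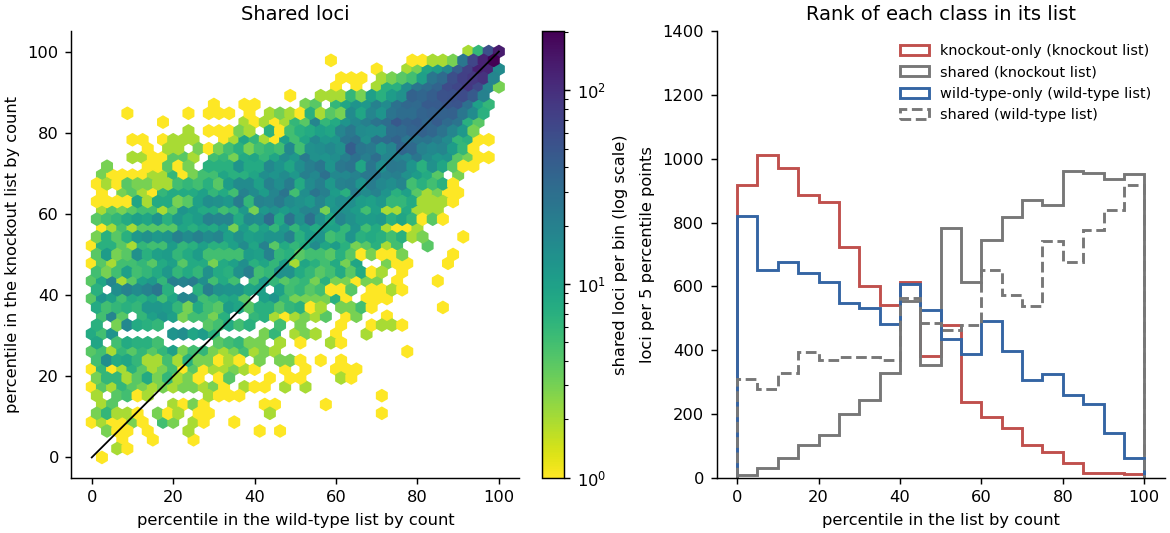
Left, percentile by count of the 10509 shared loci in the wild-type list (x axis) and the knockout list (y axis), with shading for loci per bin on a log scale and the line of equal rank. Right, number of loci per 5 percentile points for each class in its list: knockout-only loci gather at low percentiles (median 24.5), wild-type-only loci reach higher (median 36.3), and shared loci fill the top (71.4 in the knockout list).

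The strongest wild-type JunD peaks were mostly kept in the knockout, yet less completely than in other, longer lists. Of the wild-type peaks in the lowest decile of count, 71.4% (69.4 to 73.3) had no knockout peak, and of those in the highest decile 10.4% (9.12 to 11.8), or 204 of 1962. The same highest decile lacked a peak in BALB/cJ Veh for 1.33% (26 peaks) and in C57BL/6 with KLA for 0.714% (14 peaks). In the ATF3 list of the knockout cells it was 0.917% (18 peaks). These lists held 28652, 31640 and 28318 peaks, against 19355 in the knockout JunD list. A longer list can leave fewer peaks unmatched, and the part of list length was not tested. In the other direction, 98.1% of the lowest and 1.51% of the highest decile of knockout JunD peaks were missing from the wild type, the latter being 29 peaks of which 8 lay on unplaced contigs.

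Absence by decile differed between the monomers. Wild-type ATF3 peaks were missing from the knockout ATF3 list for 55.5% of the lowest and 1.22% of the highest decile, 21.8% in all. Wild-type Jun peaks were missing for 98.8% of the lowest and 28.0% of the highest decile, 78.2% in all, where the knockout Jun list held only 4290 peaks. JunD, at 46.5% in all, lay between them. List lengths differed, with 23160 against 28318 peaks for ATF3 and 15548 against 4290 for Jun, so these shares also follow how many peaks each list kept.

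**Figure D2:**
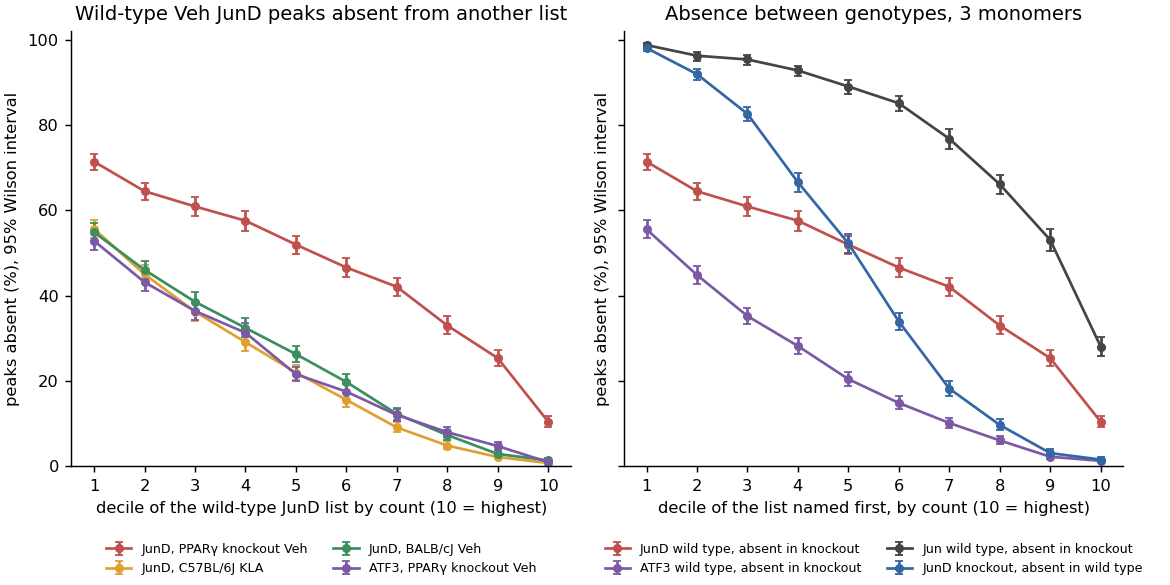
Share of peaks absent from another list (y axis, % with 95% Wilson intervals) by decile of count (x axis, 10 the highest). Left, wild-type Veh JunD peaks against the knockout, BALB/cJ, KLA and knockout ATF3 lists. The knockout JunD line stays above the others and ends at 10.4%, and its list is the shortest of these. Right, absence between genotypes for JunD, ATF3 and Jun.

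PPARγ was most frequent at shared loci. A PPARγ peak lay at 79.5% of shared loci (78.7 to 80.3), 57.6% of wild-type-only loci (56.6 to 58.6) and 40.6% of knockout-only loci (39.6 to 41.6), against 60.4% of all loci. JunD peaks with PPARγ in wild-type cells were thus more often, not less often, found again in the knockout: 61.3% (60.5 to 62.1) of 13598 wild-type JunD peaks with a PPARγ peak, against 36.0% (34.8 to 37.2) of 6055 without. PU.1 lay at 69.7%, 59.8% and 38.6% of shared, wild-type-only and knockout-only loci, and CEBPα at 39.9%, 31.2% and 10.6%. None of the 3 factors was found at 38.1% of knockout-only loci, 14.9% of wild-type-only loci and 6.39% of shared loci.

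**Figure D3:**
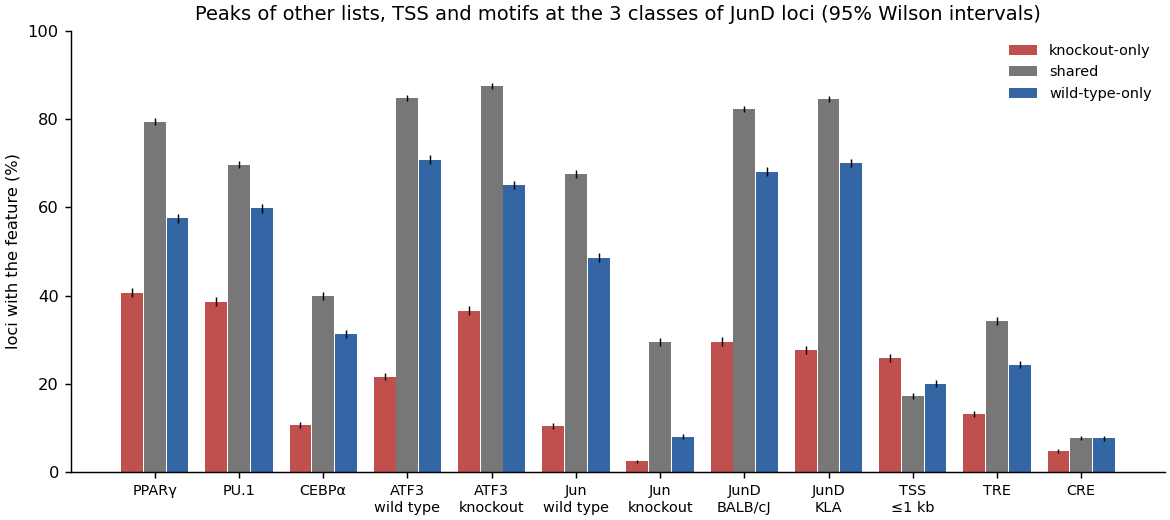
Share of loci (y axis, % with 95% Wilson intervals) of each class with a peak in another list, a TSS within 1 kb, a TRE or a CRE. Shared loci have the highest share for each peak list, PPARγ at 79.5% included, while a nearby TSS is most common at knockout-only loci.

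Since JunD rank and these factors rise together, the shares were also compared within deciles of JunD count. Between shared and wild-type-only loci in the same decile of the wild-type list, PPARγ was higher at shared loci by 13.9 percentage points (12.5 to 15.2), and in each of the 10 deciles. With the stronger 50% of each factor list alone, the PPARγ difference was 5.00 points. PU.1 was higher by 4.39 points (2.96 to 5.82), and for CEBPα the difference was -0.783 points (-2.17 to 0.599). In the lowest decile PPARγ was found at 58.7% of shared and 41.8% of wild-type-only loci, and in the highest at 94.1% and 84.8%. Against knockout-only loci in the same decile of the knockout list, shared loci were higher by 13.6 points for PPARγ (11.7 to 15.5), 13.7 for PU.1 (11.7 to 15.7) and 14.4 for CEBPα (12.7 to 16.1).

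**Figure D4:**
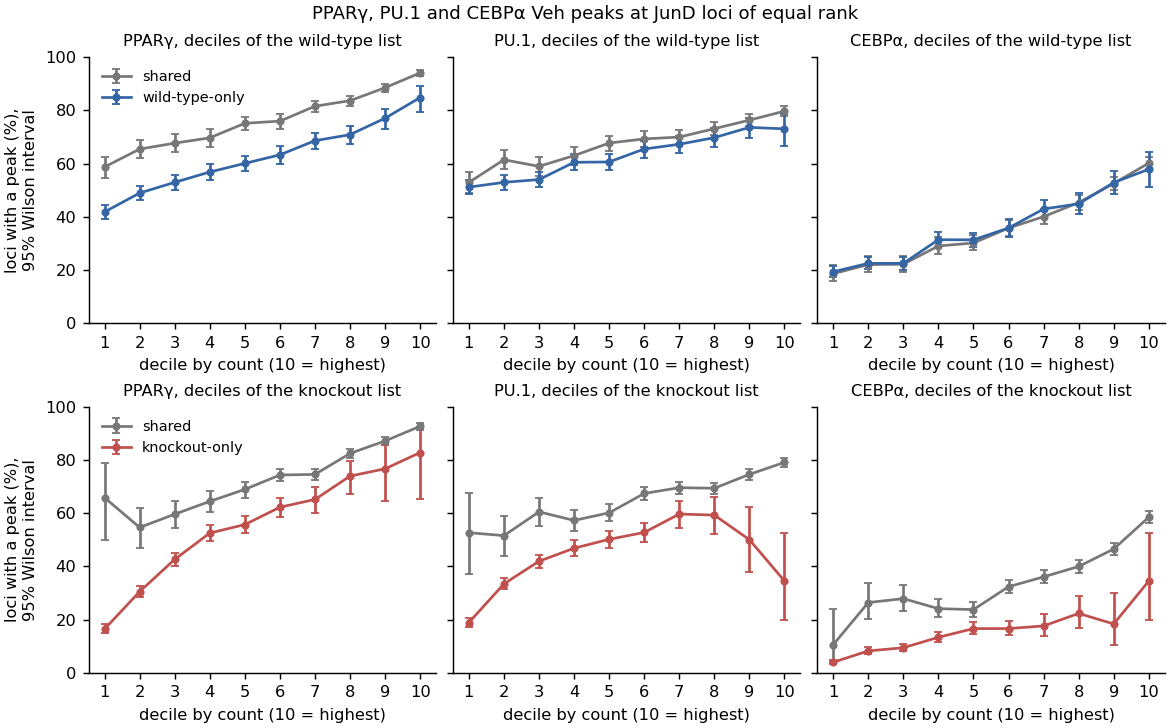
Share of loci with a PPARγ, PU.1 or CEBPα Veh peak (y axis, % with 95% Wilson intervals) by decile of JunD count (x axis, 10 the highest), in the wild-type list (top) and the knockout list (bottom). Shared loci lie above wild-type-only loci for PPARγ in all 10 deciles, while for CEBPα the top lines cross.

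The same comparison with other JunD lists in place of the knockout gave smaller values. Within deciles of the wild-type list, peaks with PPARγ were found more often by 15.1 points (13.6 to 16.7) in the knockout, by 2.44 points (1.09 to 3.80) in BALB/cJ Veh, by 3.99 points (2.57 to 5.41) in BALB/cJ KLA and by 0.432 points (-0.860 to 1.72) in C57BL/6 KLA. For ATF3 peaks in the knockout ATF3 list the value was 7.92 points (6.80 to 9.05), and for Jun peaks in the knockout Jun list 6.00 points (4.89 to 7.10). The JunD comparisons share the wild-type JunD list, while the ATF3 and Jun values use the wild-type lists and deciles of those monomers. All of them use the same PPARγ list. The BALB/cJ Veh, BALB/cJ KLA and C57BL/6 KLA lists held 28652, 33850 and 31640 peaks, against 19355 in the knockout. They lacked 24.3%, 27.4% and 22.2% of the wild-type JunD peaks, against 46.5% for the knockout. With more peaks found there is less room for a difference, and the part of list length was not tested. The knockout lists and the PPARγ list also share the contig peaks described above, and without any contigs and chromosomes M and Y the difference between shared and wild-type-only loci was 13.9 points.

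Combinations of factors ordered the wild-type loci. The knockout list held a JunD peak at 69.3% (67.8 to 70.7) of wild-type loci with PPARγ, PU.1 and CEBPα, at 60.4% with PPARγ and PU.1, at 57.6% with PPARγ and CEBPα, and at 53.7% (51.8 to 55.6) with PPARγ alone. Without PPARγ the shares were 40.4% with PU.1 and CEBPα, 36.9% (35.0 to 38.9) with PU.1 alone, 33.0% (29.6 to 36.7) with CEBPα alone, and 33.1% (31.1 to 35.2) with none.

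Against all wild-type JunD peaks of equal rank, more peaks were kept at weak PPARγ peaks, but not at the strongest. The share found in the knockout was set against that of all wild-type JunD peaks of the same deciles of JunD count. This reference includes the peaks with PPARγ, which make up most peaks of the high JunD deciles. It therefore leaves less room for an excess at strong PPARγ peaks. Where no PPARγ peak lay the difference was -9.55 points (36.0% against 45.5%). Over the PPARγ peaks of the lowest decile it was above it by 16.0 points (56.7% of 150 against 40.7%), over the fifth decile by 8.88 points, and over the ninth by 1.16 points. Over the strongest PPARγ decile, the share found, 64.8% (62.9 to 66.7) of 2414, was below the 67.6% of peaks of equal JunD rank. This difference of -2.73 points was smaller in size than the -9.55 points without PPARγ. In the highest JunD decile PPARγ also lay at 94.1% of shared and 84.8% of wild-type-only loci. ATF3 in the knockout also fell, from 9.46 points above its reference in the second decile to 2.41 points below (86.0% against 88.4%) in the tenth. The KLA and BALB/cJ Veh lists, both longer, stayed within 4 points at every decile. These strength bands were examined after the PPARγ shares had been seen.

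A DR1, the composite motif of PPARγ and RXR, went with fewer kept peaks. Among wild-type JunD loci with a PPARγ peak, 69 of 146 with a DR1 in the central 200 bp were found in the knockout, or 47.3% (39.3 to 55.3), against 61.5% of 13463 without. Within deciles of JunD count the difference was -14.3 points (-21.9 to -6.66). PPARγ counts were higher with a DR1 (median 119.5 against 52). At the same loci, those with a DR1 were also found less often in BALB/cJ Veh (75.3% against 80.0%) and KLA (77.4% against 81.5%), by -4.28 points (-10.6 to 2.09) and -3.75 points (-9.81 to 2.30) within deciles, intervals that include 0. For ATF3 in the knockout 93 of 122 were found, 76.2% against 89.2%, a difference of -12.6 points (-19.9 to -5.25), and for Jun 34 of 91, 37.4% against 32.9%, with 3.12 points (-5.25 to 11.5). The word AGGTCA alone, found on either strand and able to lie inside a CRE or a DR1, went with a difference of -2.10 points (-4.08 to -0.116). The DR1 was examined after the other results were known, and a match describes letters in a window and not a bound site.

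**Figure D5:**
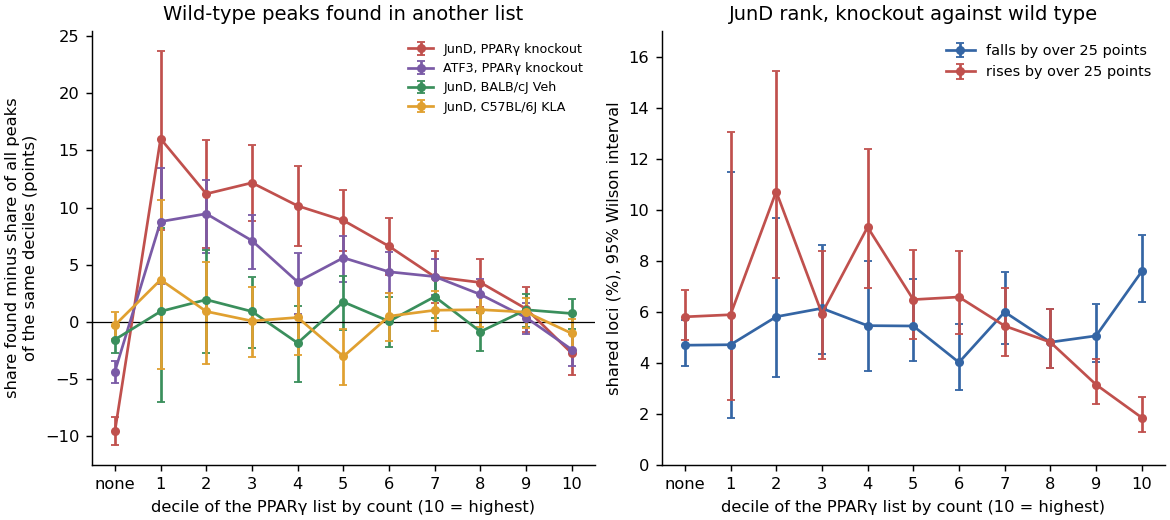
Left, share of wild-type peaks found in another list minus the share of all wild-type peaks of the same deciles (y axis, percentage points) by decile of PPARγ count (x axis, "none" for no PPARγ peak). Bars are 95% Wilson intervals of the share found alone, not of the difference. The knockout JunD line falls from 16.0 to -2.73. Right, share of shared loci whose JunD rank among shared loci rose or fell by over 25 percentile points (y axis, % with 95% Wilson intervals), with falls at 7.58% and rises at 1.85% over the strongest PPARγ peaks.

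JunD loci lost from the knockout list were in large part still bound elsewhere. Of the wild-type-only loci, 88.8% (88.2 to 89.5) had a JunD peak in at least 1 of the KLA, BALB/cJ Veh and BALB/cJ KLA lists and 44.8% in all 3, against 95.6% and 65.9% of shared loci. Of knockout-only loci, 49.8% (48.8 to 50.9) had such a peak and 11.2% had it in all 3. Within deciles, shared loci exceeded wild-type-only loci by 2.25 points (1.03 to 3.47) in BALB/cJ Veh and exceeded knockout-only loci by 22.7 points (20.8 to 24.7).

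The other monomers were often present where JunD was called in the wild type alone. ATF3 was called in wild-type cells at 70.9% of wild-type-only loci and in knockout cells at 65.1%, and 53.8% (52.8 to 54.8), 4916 loci, had ATF3 in both genotypes. At shared loci ATF3 stood at 84.9% and 87.6%. Jun was called at 48.6% of wild-type-only loci in the wild type and at 7.90% in the knockout, and at 67.7% and 29.4% of shared loci. Within deciles, shared loci exceeded wild-type-only loci by 12.7 points (11.4 to 13.9) for ATF3 in the knockout and by 1.19 points (0.0613 to 2.32) for ATF3 in the wild type. At knockout-only loci ATF3 was more frequent in the knockout (36.6%) than in the wild type (21.6%), and Jun was found at 2.34% and 10.4%.

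Knockout-only loci lay closer to genes. The median distance to the nearest start of a protein-coding transcript was 10488 bp for knockout-only, 15586 bp for shared and 13770 bp for wild-type-only loci, and 25.8% (24.9 to 26.7), 17.2% (16.5 to 17.9) and 20.0% (19.2 to 20.8) lay within 1 kb of one, against 20.8% of all loci. At equal rank the order of the last 2 turned: within deciles of the wild-type list, shared loci exceeded wild-type-only loci by 3.04 points (1.86 to 4.21), while against knockout-only loci the difference was -10.0 points (-11.8 to -8.26). PPARγ lay at 58.2% of knockout-only loci within 1 kb of a start and at 34.5% of those farther away. At wild-type-only loci the shares were 67.8% and 55.0%. By nearest gene, 9485 genes had a locus and 1744 had loci of all 3 classes.

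TREs marked the shared loci. A TRE lay in the central 200 bp of 34.3% of shared loci (33.4 to 35.2), 24.3% of wild-type-only (23.5 to 25.2) and 13.0% of knockout-only loci (12.3 to 13.8), against 24.5% of all loci, and within deciles the difference to wild-type-only loci was 1.02 points (-0.293 to 2.33) and to knockout-only loci 9.18 points (7.58 to 10.8). A CRE was found at 7.67%, 7.59% and 4.65%. The core motif of CTCF, a protein that bounds chromatin loops, was found at 2.78% of knockout-only loci (2.45 to 3.14), 0.809% of shared and 0.668% of wild-type-only loci. The Sp1 word CCCCGCCC was found at 8.08%, 5.28% and 6.09%, and the PU.1 word ACTTCCT at 17.9%, 23.9% and 22.2% of knockout-only, shared and wild-type-only loci. All words were searched on both strands.

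Among shared loci the counts kept their order (Spearman rho 0.864 over 10509 loci, a description, since the loci of both lists share their sequence and openness), with a median knockout to wild-type count ratio of 0.869. The percentile in the knockout list was higher by a median of 5.71 points (quartiles -1.06 and 18.6), and 1746 loci (16.6%) rose by over 25 points while 95 (0.904%) fell by as much. This shift depends on the loci that are not shared, which lay lower in the knockout list (median percentile 24.5) than in the wild-type list (36.3). Ranked among shared loci alone, the median shift was 0.0761 points, with 531 rises (5.05%) and 572 falls (5.44%). The values that follow use this second ranking where they count rises and falls.

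Shared loci that rose and fell differed in place. Of the 531 rises, 36.3% (32.4 to 40.5) lay within 1 kb of a transcript start, against 8.74% (6.69 to 11.3) of the 572 falls and 17.2% of all shared loci. A CEBPα peak lay at 26.6% of rises, 44.8% (40.7 to 48.9) of falls and 39.9% of all, and the CEBP word TTGCNNAA at 10.4%, 23.3% and 16.6%. The Sp1 word showed the reverse, with 11.7% of rises and 3.15% of falls. PPARγ lay at 76.5% of rises and 82.3% of falls. Over the strongest PPARγ decile 119 of 1570 shared loci fell (7.58%, 6.37 to 8.99) and 29 rose (1.85%, 1.29 to 2.64). Among shared loci without PPARγ 4.69% of 2155 fell and 5.80% rose. Between these ends there was no steady course: rises outnumbered falls in deciles 1, 2, 4, 5 and 6, falls outnumbered rises in deciles 3, 7 and 9, and the numbers were equal in the eighth. Loci of strong PPARγ also rank high for JunD, where less room to rise is left. Wild-type JunD peaks over the strongest PPARγ decile had a median percentile of 79.2 in their list, against 34.1 without PPARγ. The part of this in the few rises was not tested. By whole-list percentile, the median shift was 1.98 points with and 9.13 without CEBPα, and within deciles of mean JunD percentile it was lower with CEBPα in all 10, with an average difference of -2.80 points, against -0.635 for PPARγ and -1.20 for PU.1.

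The strongest shared loci were near Tax1bp1, a selective autophagy receptor (chr6:52825633-52825850, intron, 112012 bp downstream of the start), with counts of 227 in the knockout and 262 in the wild type, and near Mdm2, the ubiquitin ligase of p53 (chr10:117721499-117721727, intergenic), with 217 and 268. Next came loci near Sfn (220 and 242), Fmnl2 (236 and 223) and Cdc42bpg (218 and 224). All 5 had a TRE and a PPARγ peak. Loci chosen for the highest mean percentile must lie near the top of both lists. Their small shifts, at most 0.0610 points in size, therefore follow from the choice.

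The strongest wild-type-only loci had peaks of nearly every other list. The highest lay 2267 bp upstream of Prss56, a serine protease gene (chr1:87180938-87181155, intergenic), with a JunD count of 197 and the 2 TREs shown above. ATF3 there had counts of 296 in the wild type and 209 in the knockout, Jun had 90 and 55, PPARγ had 127, and JunD had 280 in BALB/cJ Veh. The next were near Eva1b (chr4:126131815-126132028, intron, 171), Bnip3l, a receptor for the removal of mitochondria (chr14:66990731-66990948, intron, 168), Sync (chr4:129268804-129269017, intergenic, 167) and Cd93 (chr2:148478448-148478648, 159). All 5 held PPARγ peaks (58 to 155), ATF3 peaks in the knockout (84 to 209) and JunD peaks in BALB/cJ Veh (143 to 280). Such peaks are usual at this rank. Of all wild-type-only loci in the highest decile of JunD count, 84.8% had PPARγ, 98.04% knockout ATF3 and 99.02% BALB/cJ Veh JunD. The knockout JunD list thus lacked loci where the knockout cells had ATF3, but the 5 named loci do not stand apart in this.

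Wild-type-only loci without PPARγ reached lower. The strongest, named after their values were seen, were near Nfkbiz, an inducible regulator of NF-κB targets (chr16:55754518-55754741, 153), Usp6nl (chr2:6366740-6366979, 140) and Ralgds (chr2:28539989-28540286, 134). Each had an ATF3 peak in the knockout, with counts of 195, 110 and 88, as did 98.04% of all wild-type-only loci in the highest decile.

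The wild-type-only loci with a DR1 and the strongest PPARγ peaks were near Tle3, a corepressor (chr9:61337750-61337997, JunD 51, PPARγ 427), Ankdd1a (chr9:65535311-65535615, 114 and 396), Ggta1 (chr2:35452471-35452683, 40 and 392), Cd34 (chr1:194995279-194995482, 150 and 363) and, in an intron 35097 bp downstream of its start, Cebpb (chr2:167723885-167724140, 69 and 318). ATF3 was called in the wild type at 4 of them, all but the locus near Ggta1, with counts of 47 to 135, and in the knockout at the Cd34 locus (87). JunD peaks of the BALB/cJ Veh list were present at the same 4 loci, with counts of 42 to 191. Shared loci with a DR1 had PPARγ peaks as strong, near Tmed10 (482), Anxa2 (461), Tomm20 (454), Ywhag (401) and Gins1 (390). Their JunD counts were 74, 103, 72, 91 and 48 in the knockout and 72, 114, 103, 91 and 63 in the wild type. ATF3 was called in the knockout at each of these shared loci, with counts of 29 to 103.

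Of the 5 knockout-only loci with the highest counts, 4 lay on unplaced contigs (149 to 160). The remaining one lay between genes, 65669 bp upstream of Sertad2 (chr11:20477540-20477790), with a JunD count of 160, a PPARγ peak of 98 and a TRE. It had ATF3 (113) and Jun (35) peaks in the knockout, none of either in the wild type, and JunD peaks of 154 in BALB/cJ Veh and 743 with KLA. The next on assembled chromosomes, named after their values were seen, were near Capzb, a subunit of the actin capping protein (chr4:139233020-139233242, 146), Arhgap25 (chr6:87503011-87503240, 136), Id2, an inhibitor of helix-loop-helix factors (chr12:25213851-25214188, 133), and Slc7a15 (chr12:8521344-8521688, 122). All 4 had BALB/cJ Veh JunD peaks (149 to 229). ATF3 was called in the wild type near Arhgap25, Id2 and Slc7a15 (152 to 256) and not near Capzb.

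By percentile in the whole lists, 4 of the 5 largest rises among shared loci were at gene starts. The count was 75 in the knockout and 32 in the wild type 637 bp downstream of a start of Csrnp1 (chr9:119983677-119983936, noncoding exon), 53 and 29 at Hgsnat, a lysosomal acetyltransferase (chr8:25976609-25976854, UTR), 61 and 32 at Nkiras1 (chr14:18270926-18271300) and 50 and 28 at Lrmda (chr14:22019668-22019900). The last of the 5 was far from a start, near Gm10974 (51 and 29). By the same ranking the 5 largest falls were near Ear2, an eosinophil-associated ribonuclease (chr14:44077870-44078085, 18 in the knockout and 67 in the wild type), Hadhb, of mitochondrial fatty acid oxidation (chr5:30172008-30172369, 19 and 67), Clec10a, a lectin of alternatively activated macrophages (chr11:70189290-70189528, 24 and 77), Kif13b (chr14:64637431-64637746, 29 and 91) and Slc16a10, an aromatic amino acid transporter (chr10:40093605-40093826, 26 and 74). Ranked among shared loci alone, the same 5 loci stand in another order, with shifts of -67.8 points near Kif13b, -63.8 near Clec10a, -59.1 near Slc16a10, -57.3 near Ear2 and -57.1 near Hadhb. PPARγ peaks lay at 4 of the falls, all but that near Ear2, with counts of 282 near Hadhb and 308 near Slc16a10, where the DR1 shown above lies.

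The genes of the AP-1 monomers had many wild-type-only loci. Of 44 loci within 5 kb of 15 AP-1 genes, 27 were wild-type-only (61.4%, against 32.1% of all loci), 11 shared and 6 knockout-only (13.6% against 31%). They were not strong, with a median count of 43 over the wild-type-only loci, the same as over all wild-type-only loci. A PPARγ peak lay at 23 of the 27, against 57.6% of all wild-type-only loci. At Junb all 5 loci were wild-type-only (counts 34 to 54). At Atf3, a locus 87 bp upstream of a start (chr1:191183286-191183568) had a JunD count of 116 in the wild type and no knockout peak, while ATF3 itself had counts of 327 in the wild type and 261 in the knockout there. The starts of Fosl2 (chr5:32135686-32135949, 95) and Fosl1 (chr19:5447683-5447960, 36) were wild-type-only too. Shared loci were found at the start of Jund (chr8:70698659-70698980, 125 in the knockout and 107 in the wild type), at Jun (70 and 81) and upstream of Fos (93 and 115, 68 and 69). Neighbouring AP-1 genes such as Fos, Jdp2 and Batf lie on the same stretch of chromosome 12, so their loci are not independent.

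Genes of PPARγ and lipid handling had a wild-type-only share near that of all loci. Of 81 loci at 18 of 20 genes, 36 were shared (44.4% against 36.9%), 27 wild-type-only (33.3% against 32.1%) and 18 knockout-only (22.2% against 31%). PPARγ peaks lay at 33 of the 36 shared loci, against 79.5% of all shared loci. At Cd36, the fatty acid scavenger receptor, 5 loci were shared and 2 wild-type-only. The counts of the shared loci were 77, 51, 66, 52 and 106 in the knockout and 140, 88, 87, 88 and 106 in the wild type. Lower counts in the knockout, as at 4 of the 5, were also usual over all shared loci. There the median knockout to wild-type ratio was 0.869, with quartiles 0.742 and 1.01, and counts are not scaled to library size. At Plin2, which coats lipid droplets, the locus 1937 bp upstream of the start (chr4:86671859-86672135, PPARγ 457) had 55 and 94. Hilpda, another lipid droplet protein, had 60 and 93 at a locus with a PPARγ count of 359, but 75 and 53 at its start. At Lipa, the lysosomal lipase, the locus with the strongest PPARγ peak (chr19:34515722-34516034, 563) had 122 and 116. Angptl4, an inhibitor of lipoprotein lipase and a PPARγ target, had a wild-type-only locus in an intron (chr17:33779234-33779550, 50) beneath a PPARγ count of 449, and the start of Fabp4, a fatty acid binding protein, was wild-type-only (chr3:10208554-10208776, 65).

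Genes of PPARγ partners and cofactors had the highest knockout-only share among the gene groups. Of 35 loci at 8 of 10 genes, 16 were knockout-only (45.7% against 31%), 11 shared and 8 wild-type-only. At Tbl1xr1, a subunit of a corepressor complex, the knockout-only loci had a count of 55 near the start (chr3:22076264-22076487), at percentile 73.9 of the knockout list, and of 17 to 32 at 4 loci in introns. PPARγ peaks lay at 4 of the 16, against 40.6% of all knockout-only loci.

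Inflammatory and chemokine genes had 25 shared, 20 wild-type-only and 8 knockout-only loci of 53 at 16 of 18 genes. These were 47.2%, 37.7% and 15.1%, against 36.9%, 32.1% and 31% of all loci. Wild-type-only loci lay at the starts of Ccl3, a chemokine for monocytes (chr11:83649379-83649595, 113), and Tnfaip3, the ubiquitin editing enzyme A20 (chr10:19015351-19015622, 108), and 3745 bp downstream of the start of Nfkbia, the inhibitor of NF-κB (chr12:55488751-55489053, 95). All 3 had ATF3 peaks in the knockout, with counts of 104, 80 and 91. Tnf had a shared locus with 113 in the knockout and 117 in the wild type, and the stronger of the shared loci at Il1b had 89 and 105. The locus at the start of Il6 was knockout-only, with a count of 21.

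Genes of iron, heme and antioxidant defence had 16 wild-type-only loci (48.5%, against 32.1% of all loci), 13 shared and 4 knockout-only of 33 at 9 of 11 genes. Slc11a1, a metal transporter of phagosomes, had a wild-type-only locus 63 bp upstream of its start (chr1:74375013-74375251, 96, PPARγ 224), and Nfe2l2, the antioxidant regulator Nrf2, had one of 90 in an intron (chr2:75682955-75683168). A knockout-only locus of 63 lay at the start of Gclm, of glutathione synthesis (chr3:122245470-122245721). Lysosome genes had 36 wild-type-only loci (41.9%), 24 shared and 26 knockout-only of 86, the strongest of the first at Atp6v0d2, a subunit of the vacuolar proton pump (chr4:19918990-19919202, 100), and Npc2, a sterol carrier (chr12:84752069-84752295, 94).

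Lineage factor genes had 37 shared, 33 knockout-only and 22 wild-type-only loci of 92 at 14 genes. These were 40.2%, 35.9% and 23.9%, against 36.9%, 31% and 32.1% of all loci. The start of Cebpa was wild-type-only (chr7:35118984-35119251, 72) and the start of Cebpb knockout-only (chr2:167688572-167688906, 73), while a locus 1144 bp upstream of Cebpb, beneath a PPARγ count of 308, was wild-type-only (65). Alternative activation genes had 10 wild-type-only, 8 shared and 5 knockout-only loci of 23 (43.5%, 34.8% and 21.7%). At Arg1, the arginase of such cells, all 3 loci were shared, with counts of 68, 95 and 73 in the knockout and 99, 100 and 95 in the wild type, and at Il4ra, the receptor chain for interleukin-4, wild-type-only loci had 67 and 64. A list of genes shown or discussed with these samples earlier is no independent choice. It had 11 shared, 8 wild-type-only and 3 knockout-only loci of 22 (50%, 36.4% and 13.6%). Loci at the macrophage markers numbered 18 wild-type-only, 11 shared and 11 knockout-only of 40 (45%, 27.5% and 27.5%). Those at markers of other cells numbered 8, 2 and 2 of 12 (66.7%, 16.7% and 16.7%).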

How the data were processed

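JunD, ATF3, Jun, PPARγ, PU.1 and CEBPα ChIP-seq lists of mouse TGEMs were used, 12 in all. The authors aligned reads with Bowtie2 to mm10 (BALB/cJ reads to a custom genome, shifted back), called peaks with HOMER against input, and combined replicates with IDR 2.0.3, removing peaks at an IDR of 0.05 or more. The deposited peak lists hold positions, a count of tags and a scaled IDR score (540 to 1000). The counts are not scaled to library size, and how replicates' counts were joined is not given in the sources used here. With 1 list per condition no test was made.

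Peaks overlapping by 1 bp were joined with pandas 2.3.3 and numpy 2.4.6. Shares were compared within deciles of a list by count (Mantel-Haenszel differences, Sato variance, after testing on simulated data). Genes were those of GENCODE M21. A TSS is the start of any basic protein-coding transcript. Motifs were read in the central 200 bp from GRCm38.p6. Loci named are the 5 highest or most shifted of each class, and loci in or within 5 kb of listed genes. The loci and gene lists were chosen with earlier results of these data known. Alternatives covered overlap rules, list length, count and IDR thresholds, factor strength, ranking, TSS distance and motif window.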

Additional observations from a re-analysis of the deposited data

Results flagged for a closer look

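The knockout JunD list held 60 peaks on unplaced contigs, all knockout-only, against 0 in the wild-type JunD list, and was set apart because these sequences belong to no chromosome and enter none of the gene comparisons. PPARγ peaks of wild-type cells overlapped 38 of the 60, ATF3 peaks of knockout cells 27, Jun peaks of knockout cells 29 and ATF3 peaks of wild-type cells 1. The origin of these peaks was not tested.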

How the results depend on the processing

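Over 14 alternatives, 125 values of 33 results were recomputed: 74 moved by less than their counting interval or 1.5 times a count, and 51 moved further. No difference of shares changed sign, but the balance of rises and falls in rank did. No paired analysis was possible because each condition has 1 list. With peak centres within 100 bp, PPARγ at shared exceeded knockout-only loci by 41.7 points, and by 18.2 within deciles. The strongest 50% of each JunD list gave 3229 knockout-only, 6448 shared and 3376 wild-type-only loci. PPARγ at shared loci then exceeded wild-type-only loci by 16.0 points (11.6 within deciles) and knockout-only loci by 16.6 (9.27 within deciles), PU.1 and CEBPα exceeded knockout-only loci within deciles by 11.4 and 20.0, and BALB/cJ Veh JunD and knockout ATF3 exceeded wild-type-only loci by 5.79 and 12.5. A common threshold at the pooled median count of 44 (7227 knockout and 12305 wild-type peaks) gave 914, 6313 and 5990 loci, and a scaled IDR score of 1000 gave 5876, 6651 and 3556. With the strongest 50% of the factor lists, the PPARγ differences were 19.7 points (5.00 within deciles) to wild-type-only and 44.7 to knockout-only loci, and within deciles those of PU.1 and CEBPα to knockout-only loci were 11.2 and 8.97. At loci at least 3 kb from a TSS PPARγ differed by 24.1 points from wild-type-only and by 44.3 (16.1 within deciles) from knockout-only loci. Ranking among shared loci gave a median shift of 0.0761 points (-0.128 to 0.252, an interval that includes 0), with 531 rises and 572 falls in place of 1746 and 95, so that falls were then the more numerous. In the central 100 bp the TRE differences were 8.19 and 18.9 points. Leaving out contigs and chromosomes M and Y, 1 start per gene, and within-decile values for the stronger JunD peaks and for peak centres were added after seeing the data. Apart from what each alternative leaves out, the cause of these moves was not tested. Sequencing depth is unknown, so an absent peak may lie under the threshold of its list.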
